A study of Homo sapiens with 6 samples.

Results

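The genes described are those that govern the decision of a cell to leave G1: the D-type cyclins CCND1 and CCND3, the cyclin-dependent kinases CDK2, CDK4 and CDK6, the kinase inhibitors CDKN1B and CDKN2C, the pocket proteins RB1 and RBL2, and the transcription factor E2F4. They were taken by symbol from a list of 10 named genes. Of these, 9 had a row among the 12768 genes of the count table, and CDK6 was not analysed here. RNA was sequenced from LNCaP, a line of human prostate cancer cells that respond to androgen. The cells stably carried a plasmid whose hairpin RNA (shRNA), induced by doxycycline, targets the mRNA of PRMT5, which makes most of the symmetric dimethylarginine in cells. In the knockdown group, 3 cultures received doxycycline for 4 days, and the no-knockdown group was 3 cultures of the same cells kept for 4 days without it. The labels list no culture given doxycycline without the PRMT5 hairpin, so knockdown and doxycycline cannot be told apart, and they do not say whether the line is 1 clone.

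In G1, mitogens raise the D-type cyclins, which activate CDK4 and CDK6. These kinases phosphorylate the pocket proteins, which then release E2F factors, and CDK2 with cyclin E completes the phosphorylation as the genes of DNA synthesis come on. The INK4 inhibitors, CDKN2C among them, bind CDK4 and CDK6, whereas CDKN1B acts mainly on CDK2. In resting cells RBL2 and E2F4 join the MuvB proteins in a complex called DREAM that keeps cell cycle genes off. In prostate cancer cells this pathway is one of the routes by which androgen drives proliferation.

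Libraries held 7911853 to 15831938 counted reads, so that 3 reads were worth 0.189 to 0.379 CPM (counts scaled to library size). PRMT5 stood at 82.8 to 91.96 CPM without knockdown and at 9.69 to 10.8 CPM with it, on the side each label gives. All 8 luminal prostate markers examined had rows. Their summed level was 4354 to 4391 CPM without knockdown and 4209 to 4271 CPM with it. Among 9 markers of other cell types, COL1A1 and SYP had rows and summed to 16.7 to 26.7 and 20.1 to 23.3 CPM, and the other 7, KRT5, KRT14, TP63, COL1A2, PDGFRB, PTPRC and CHGA, were not analysed here. Over all genes, 189 passed an adjusted p of 0.05 by edgeR's quasi-likelihood test (1.48%), and 1061 did (8.31%) when the replicate number was added as a block. The numbers met the criterion set for pairing, so the blocked value is printed wherever it changed a call. The correlations behind that criterion set replicate 2 apart but did not tell replicate 1 from replicate 3.

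The binding site of E2F factors links the pathway to its output, and the letters below show it next to 2 genes of a later comparison. RefSeq promoters (GRCh38.p14, 250 bases before to 50 after a gene's start) were searched on both strands for TTTCCCGC, TTTCGCGC, TTTGCCGC and TTTGGCGC, counting overlapping matches separately. A match was present at 3.99% of all 27305 genes with a promoter in the RefSeq table, at 6.66% of those also in the count table, and in 3.31% of 35116 promoters. It was present at 11 of 18 E2F target genes with a promoter there, at 6 of 23 pathway partners and at 0 of the 8 named genes that have one there (7 of them measured). For CCND1 and CDK2 no promoter was examined. The RB1 window in that table lies inside the gene as GENCODE 29 annotates it, downstream of its first start. The stretches below come from MCM6 and MCM7, helicase subunit genes of the E2F target list that passed in opposite directions with the replicate block. Each reads 5′ to 3′ on the gene's strand, with 1 match in capitals.
MCM6, chr2:135876577-135876606, minus strand: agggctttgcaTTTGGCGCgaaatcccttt
MCM6, chr2:135876515-135876544, minus strand: cattggtcaggTTTGGCGCgaaatctccag
MCM7, chr7:100101566-100101595, minus strand: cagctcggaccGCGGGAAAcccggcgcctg
MCM7, chr7:100101388-100101417, minus strand: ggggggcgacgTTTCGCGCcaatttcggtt
In both MCM6 stretches a second match, GCGCGAAA (the reverse complement of TTTCGCGC), shares 4 bases with the capitals and is otherwise left in lower case. A match describes the letters and is not evidence that a factor is bound.

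Steady-state mRNA of the pathway spanned a wide range. Levels between genes are given as CPM per kilobase of the deposited gene length. Without knockdown RBL2 (67.2 ± 2.34, SD, n = 3) and CCND1 (65.96 ± 3.88) stood highest, and their ranges over the 3 libraries overlapped. They were followed by CDK4 (47.9 ± 1.32) and CDKN1B (44.9 ± 4.06), which also overlapped. E2F4 (23.1 ± 0.56) and RB1 (18.2 ± 0.12) came next, each separate from its neighbours. CDK2 (10.6 ± 1.54) and CCND3 (9.53 ± 1.6) could not be ordered beyond their spread, and CDKN2C was lowest (2.34 ± 0.20). After knockdown the order differed only within the pairs RBL2 and CCND1, and CDK2 and CCND3. CCND1 then stood at 71.0 ± 2.17, RBL2 at 63.4 ± 4.15 and CDKN2C at 1.50 ± 0.17 CPM per kilobase. The ranges of CCND1 and RBL2 no longer overlapped, nor did those of CDK4 (lowest 52.96) and CDKN1B (highest 52.88). Per length, CCND1 exceeded CCND3 by 7.02 ± 0.86 times without knockdown and by 6.94 ± 0.46 times with it.

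After PRMT5 knockdown none of the 9 genes passed an adjusted p of 0.05 by edgeR without the block, against 1.48% of all genes. At an unadjusted p under 0.05 there were 3 of 9, CDKN2C, CDK4 and E2F4, against 1792 of 12768 genes. DESeq2 and limma-voom also called none of the 9, against 303 and 182 genes in all. With the replicate block 1 of 9 passed, CDKN2C downward, against 5.1% of all genes lower and 3.21% higher. The median log2 fold change of the 9 genes was 0.03, and that of all genes was 0.00 (-0.0021). The groups did not overlap for 4 of the 9, CCND1, CDK4 and E2F4 upward and CDKN2C downward, where 19.8% of all genes did not overlap, 8.22% upward and 11.6% downward. In 3 of 3 numbered pairs 3 genes were higher (CCND1, CDK4 and E2F4) and 3 lower (CDKN2C, CDK2 and RBL2), where 43.7% of all genes went the same way in each pair, 20.9% higher and 22.8% lower. The authors' deposited table lists 1 of the 9, CDKN2C, under a false discovery rate of 0.05, against 3.7% of its genes.

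**Figure D1:**
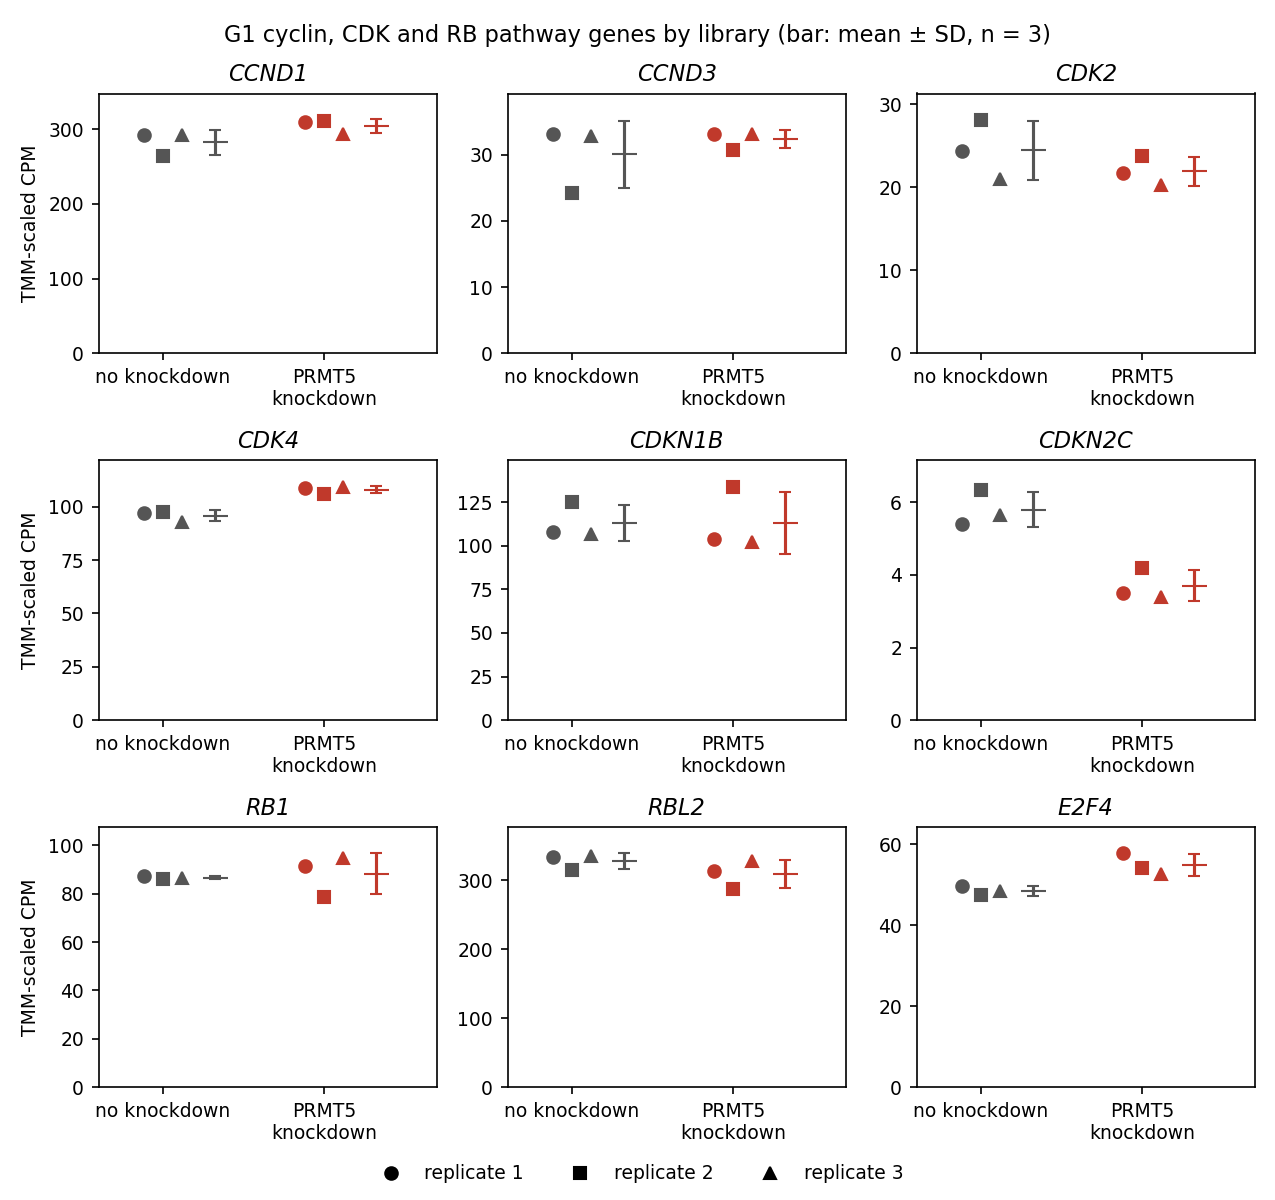
TMM-scaled CPM (vertical axis, from 0) of the 9 measured genes in each library, with replicates 1, 2 and 3 as circles, squares and triangles and the mean ± SD beside them (n = 3). The 3 knockdown points of CDKN2C, at 3.41 to 4.20 CPM, lie below the 3 without knockdown, at 5.41 to 6.35 CPM, while replicate 2 of CDKN1B is the highest point of each group.

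Among the cyclins, CCND1 encodes cyclin D1, the main D-type cyclin of epithelial cells. CCND1 mRNA stood at 292, 264 and 293 CPM in replicates 1, 2 and 3 without knockdown and at 309, 311 and 294 CPM with it. Every knockdown library was above every other library, but the lowest of them exceeded the highest control by under 2 CPM. The difference did not pass the test (log2 fold change 0.11, 95% interval -0.06 to 0.27, edgeR adjusted p = 0.563). CCND3, which encodes cyclin D3, stood at 33.2, 24.3 and 32.9 CPM without knockdown and at 33.1, 30.8 and 33.2 CPM with it. The groups overlapped, and replicate 2 without knockdown was the low point (log2 fold change 0.11, interval -0.17 to 0.38, edgeR adjusted p = 0.747). Without that library the log2 fold change of CCND3 was -0.03. The balance of the cyclins, taken as the log2 ratio of CCND1 to CCND3 reads within a library, was 3.25 ± 0.17 without knockdown and 3.23 ± 0.10 with it (exact two-sided permutation p = 0.9, where 0.1 is the smallest value that 3 against 3 libraries allow).

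Of the kinases, CDK4, the partner of the D-type cyclins, stood at 97.1, 97.7 and 92.8 CPM without knockdown and at 109, 106 and 109 CPM with it. The groups were separate and each was narrow, with means of 95.9 ± 2.64 and 108 ± 1.73 CPM (n = 3 each). The log2 fold change of 0.17 (SE 0.068, interval 0.02 to 0.32) did not pass over all genes (edgeR adjusted p = 0.293, and 0.127 with the block). It passed only in the blocked fit without replicate 2 of both groups (log2 fold change 0.20, adjusted p = 0.023), which rests on 4 libraries and called 2391 genes in all. On the opposite strand, exons of TSPAN31 share 1369 of the 3168 exonic bases of CDK4 (43.2%, GENCODE 29), and no source used here gives the strand setting of the counting. TSPAN31 itself had a log2 fold change of -0.11 (SE 0.13, edgeR adjusted p = 0.766), and how far the shared bases moved the CDK4 count was not tested. CDK2, which works with cyclins E and A, stood at 24.4, 28.1 and 20.95 CPM without knockdown and at 21.7, 23.8 and 20.2 CPM with it. CDK2 was lower in each numbered pair, but the groups overlapped (log2 fold change -0.17, interval -0.44 to 0.11, edgeR adjusted p = 0.599).

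The inhibitor CDKN2C (p18, an INK4 protein) showed the largest difference of the 9 genes. CDKN2C stood at 5.41, 6.35 and 5.65 CPM without knockdown and at 3.51, 4.20 and 3.41 CPM with it. All 3 knockdown libraries were below all 3 controls, and the mean after knockdown was 63.9% of that without. These levels rest on few reads, 59, 62 and 45 without knockdown and 37, 45 and 53 with it. The log2 fold change was -0.65 (SE 0.18, interval -1.06 to -0.25), with an edgeR adjusted p of 0.134. With the replicate block it passed (log2 fold change -0.65, adjusted p = 0.036). The authors' deposited table lists CDKN2C at a log2 fold change of -0.65 and a false discovery rate of 0.044. It was lower in each of the 13 alternative fits, by 0.58 to 0.75 on the log2 scale, and passed in 2 of them, both with the block. These fits reuse the same libraries, and the one with no filter repeats the main fit, so they are not independent. By the root mean square difference of mean-centred log2 CPM over the 6 libraries, the genes nearest to CDKN2C among 11426 candidates were ATPAF1, SF3A3 and DNAL1, at distances of 0.019, 0.040 and 0.041. Their log2 fold changes were -0.63, -0.58 and -0.59, a likeness that follows from choosing them by profile.

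CDKN1B (p27), the Cip/Kip inhibitor whose protein level is set largely by degradation, had the smallest difference. Its mRNA stood at 108, 125 and 107 CPM without knockdown and at 104, 133 and 102 CPM with it. The groups overlapped throughout, with replicate 2 the highest of each group. The means were 113 ± 10.2 and 113 ± 17.7 CPM (log2 fold change -0.00, interval -0.25 to 0.25, edgeR adjusted p = 0.992). The blocked fit narrowed the interval to -0.15 to 0.13.

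**Figure D2:**
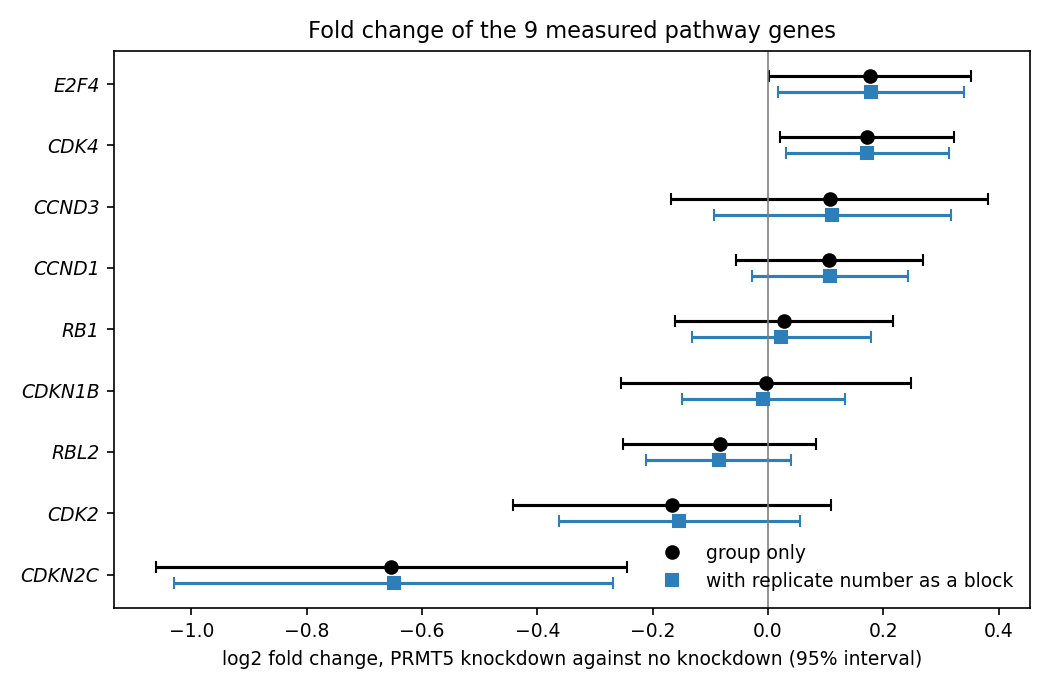
Log2 fold change of each of the 9 genes (horizontal axis, knockdown against no knockdown) with its 95% interval, with group as the only term (circles) and with a block for replicate number added (squares). CDKN2C lies farthest from 0, at -0.65 in both fits, and the other 8 genes lie between -0.17 and 0.18.

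Neither pocket protein gene passed the test, and the groups overlapped for both. RB1, the retinoblastoma protein that restrains E2F, stood at 87.3, 86.1 and 86.4 CPM without knockdown and at 91.3, 78.6 and 94.8 CPM with it. The control libraries lay inside the range of the knockdown ones (log2 fold change 0.03, interval -0.16 to 0.22, edgeR adjusted p = 0.917). RBL2 (p130), the pocket protein of resting cells, stood at 334, 315 and 336 CPM without knockdown and at 313, 288 and 328 CPM with it. It was lower in each numbered pair with overlapping groups (log2 fold change -0.08, interval -0.25 to 0.08, edgeR adjusted p = 0.670). E2F4, the repressive E2F that partners RBL2, stood at 49.8, 47.4 and 48.4 CPM without knockdown and at 57.8, 54.3 and 52.7 CPM with it. The groups were separate, the means being 48.5 ± 1.19 and 54.9 ± 2.64 CPM, but the difference did not pass (log2 fold change 0.18, interval 0.00 to 0.35, edgeR adjusted p = 0.350, and 0.171 with the block).

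For some of the 9 genes replicate 2 differed from replicates 1 and 3 in the same direction in both groups. CDKN1B was higher in replicate 2 than in the mean of replicates 1 and 3 by 0.22 (log2 CPM) without knockdown and by 0.37 with it. CDK2 was higher in that replicate by 0.31 and 0.18, and CDKN2C by 0.19 and 0.27. On the other side, CCND3 differed by -0.44 and -0.11. The median size of this difference over all genes was 0.18 without knockdown and 0.15 with it. CDKN1B, CDK2 and CDKN2C exceeded it in both groups and CCND3 only without knockdown. As many genes lie above a median as below it, and the share of all genes above it in both groups was not computed. These counts therefore do not show that the 9 genes differ from other genes in replicate 2. CDKN2C also rests on few reads, 62 or fewer in each library. The other 5 genes showed no such shared difference above the median size. CCND1 (-0.15 and 0.04) and CDK4 (0.04 and -0.04) differed in sign between the groups. RB1 (-0.01 and -0.24), RBL2 (-0.09 and -0.15) and E2F4 (-0.05 and -0.02) were lower in replicate 2 of both groups, RB1 and RBL2 exceeding the median size only with knockdown and E2F4 in neither group. What sets replicate 2 apart is not given by the labels.

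**Figure D3:**
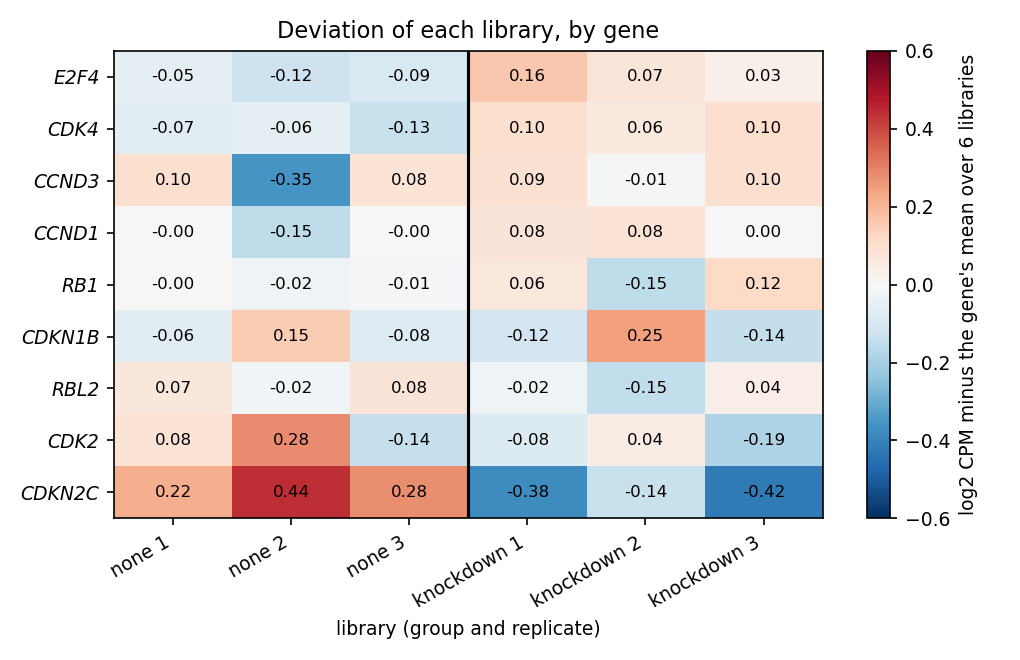
Log2 CPM of each library minus the gene's mean over the 6 libraries, with genes in rows ordered by fold change, libraries in columns and the colour from blue (lower) to red (higher). CDKN2C runs from 0.22 to 0.44 without knockdown and from -0.42 to -0.14 with it, and the column of knockdown replicate 2 shows CDKN1B at 0.25.

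Around these genes, 25 of 27 pathway partners were measured, CCND2 and E2F2 being the ones not analysed here, and none passed without the block (1.48% of all genes did), with 3 at an unadjusted p under 0.05, as were 1792 of all 12768 genes. DESeq2 and limma-voom, which called 303 and 182 genes in all, called none of the partners either. Their median log2 fold change was -0.05 (all genes 0.00), with 10 above 0 and 15 below. CUL1, the scaffold of the SCF ubiquitin ligase, had 118 ± 12.4 and 99.9 ± 3.28 CPM (log2 fold change -0.24, edgeR adjusted p = 0.244). AMBRA1, which directs D-type cyclins to degradation, had 60.1 ± 2.13 and 67.9 ± 3.07 CPM (log2 fold change 0.18, edgeR adjusted p = 0.344). With the block 1 partner passed (8.31% of all genes did), CDKN1A, the p53-induced inhibitor p21, with 218 ± 34.0 and 260 ± 30.9 CPM (blocked log2 fold change 0.26, adjusted p = 0.013, higher in 3 of 3 pairs). It was at 240, 179 and 235 CPM without knockdown and at 284, 225 and 270 CPM with it, so each group had its low point in replicate 2 and the groups overlapped. Of the 5 MuvB core genes none passed in either fit, by DESeq2 or by limma-voom, and none had an unadjusted p under 0.05. The blocked fit without replicate 2 of both groups called 2391 genes in all. Among the MuvB genes it called 1, the histone-binding gene RBBP4 (log2 fold change 0.22, adjusted p = 0.0033). Over all 6 libraries RBBP4 had a log2 fold change of 0.07 (edgeR adjusted p = 0.774, and 0.635 with the block). With knockdown it was higher in replicates 1 and 3 but lower in replicate 2 (252 CPM without knockdown and 218 with it). LIN52 (log2 fold change -0.20, edgeR adjusted p = 0.611) and LIN54 (-0.07, adjusted p = 0.750) had the smallest p of the 5 without the block.

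Genes that E2F factors control moved in no common direction. Of 22 E2F target genes 19 were measured, UHRF1, E2F8 and MYBL2 not being analysed here, and their median log2 fold change was 0.03 (all genes 0.00), with 11 above 0 and 8 below. By edgeR 1 rose and none fell (background 0.337% higher and 1.14% lower). This was E2F7, an atypical E2F that represses E2F targets, at 0.55, 0.31 and 0.50 CPM without knockdown and at 1.61, 1.59 and 1.93 CPM with it (log2 fold change 1.93, SE 0.36, edgeR adjusted p = 0.029). The groups did not overlap, but the controls held only 6, 3 and 4 reads against 17, 17 and 30, at or near the 3 reads taken as a floor. Only the knockdown libraries reached the filter's minimum count of 10. E2F7 thus met the filter through the group where it is high, which favours a rise in advance. The call for E2F7 was lost by DESeq2 (adjusted p = 0.066) and without each library except knockdown replicate 2 (0.065 to 0.16). With the block 3 target genes passed, E2F7 and MCM7 higher and MCM6 lower, where 3.21% of all genes were higher and 5.1% lower. MCM6 had 34.0 ± 6.34 and 24.3 ± 1.97 CPM (log2 fold change -0.49, edgeR adjusted p = 0.125, and 0.0061 with the block). MCM7, which works in the same helicase, had 47.7 ± 10.3 and 58.3 ± 6.89 CPM (log2 fold change 0.29, edgeR adjusted p = 0.448, and 0.035 with the block). Both hold the E2F motif printed above, and their fold changes have opposite signs. In the same libraries 4 of the 8 luminal markers, KRT18, KLK2, KLK3 and TMPRSS2, were lower with the block (5.1% of all genes were), and none passed in the other direction. Without the block none of the 8 passed (edgeR adjusted p 0.234 for KRT18, 0.345 for KLK2, 0.576 for KLK3 and 0.482 for TMPRSS2). The groups overlapped for KLK2, KLK3 and TMPRSS2, but not for KRT18. KLK3 was at 153, 250 and 159 CPM without knockdown and at 109, 199 and 102 CPM with it, highest in replicate 2 of each group. HOXB13, of the same list, had a blocked log2 fold change of 0.25, with separate groups and higher values in 3 of 3 pairs. Its edgeR adjusted p was 0.055 with the block and 0.317 without it. Whether these markers bear on the pathway was not tested.

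**Figure D4:**
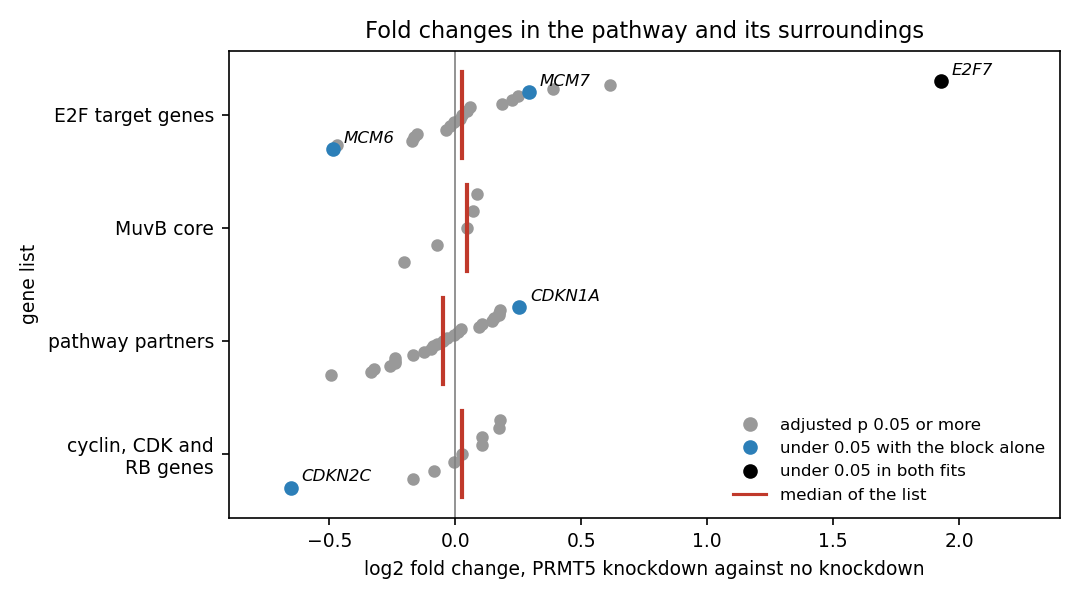
Log2 fold change (horizontal axis) of each measured gene in the 9 cyclin, CDK and RB genes, the pathway partners, the MuvB core and the E2F target genes, with the median of each list as a vertical bar. Black marks a gene past an adjusted p of 0.05 in both fits (E2F7, at 1.93), blue one past it with the block alone (CDKN2C, CDKN1A, MCM6 and MCM7), and the medians lie between -0.05 and 0.04.

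By position (GRCh38, GENCODE 29), CDKN2C lies on chromosome 1 from 50960745 to 50974633 (plus strand), CCND1 on chromosome 11 from 69641087 to 69654474 (plus) and CDK4 on chromosome 12 from 57747727 to 57756013 (minus). E2F4 and RBL2 are both on chromosome 16, E2F4 from 67192169 to 67198918 (plus) and RBL2 from 53433977 to 53491649 (plus). Counts cover whole genes, so reads could come from any exon or untranslated region. Besides CDK4, opposite-strand exons of a measured gene overlap CCND1 (ORAOV1, 10.3% of exonic bases), RBL2 (AKTIP, 8.33%) and CDK2 (PMEL, 2.29%). Opposite-strand exons of genes not matched to a row overlap CDK2 (AC025162.1, 14.5%), RBL2 (AC007342.6, 9.85%) and CCND3 (AL513008.1, 0.414%). For PRMT5 the overlap with PRMT5-AS1 was 27.1%. How far these shared bases moved the counts was not tested. No such overlap was found for CDKN2C, CDKN1B, RB1 or E2F4.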

How the data were processed

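Raw read counts per gene and log2 CPM were deposited by the authors for 6 libraries, with their log2 fold changes, p-values and false discovery rates, per the file headers. The submitters' processing notes name STAR 2.5, featureCounts of Subread 1.6.5, edgeR 3.20.8 and hg38. The table's own coordinates are not printed. No source used here gives the annotation, the strand setting or the authors' filter on low counts. Tests used edgeR 4.0.16 (R 4.3.3), with filterByExpr (minimum count 10, minimum total 15, 0 genes removed) and then TMM scaling. A robust quasi-likelihood fit with group only followed, with Benjamini-Hochberg adjustment over all 12768 genes. CPM are TMM-scaled. Fold changes carry no prior count, and dividing each by the root of its F statistic gave the standard error. Log2 CPM for profiles used a prior count of 2. Intervals of fold changes are 95%. Floors of 3 reads cover counting error only. The series calls the cultures biological replicates, and p-values measure the spread between them.

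Across genes, libraries that share the number 1, 2 or 3 deviated together from their group means, with correlations of 0.339, 0.453 and 0.169. Each was above 0.1, so the numbers were treated as pairs in an alternative fit. Correlations across numbers were 0.232 (no knockdown 3 with knockdown 1) and 0.199 (no knockdown 1 with knockdown 3), both above the 0.169 of pair 3. Replicate 2 of each group correlated negatively with replicates 1 and 3 of the other. The correlations thus set replicate 2 apart but do not show that numbers 1 and 3 are separate pairs. Replicate pairs differed by more than sampling noise (chi-square per degree of freedom 1.73 to 20.4). Other alternatives were DESeq2 1.42.0, limma-voom (limma 3.58.1), other scalings, no filter and leaving out libraries. On simulated counts for this comparison (12768 genes), the fit without the block recovered 65% of 100 genes changed 1.5-fold and 88% of 100 changed 2-fold, and called 13 unchanged genes.

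The text names the 9 measured genes, PRMT5, in each further list the genes past the threshold and the 2 with the smallest p, and the 3 nearest profiles. CDKN1A, MCM7 and RBBP4, the luminal markers named and the overlapping genes were named after their values were seen. The genes and lists were chosen with earlier results of these data known. The planned ratio of CDK4 to CDK6 was not computed, since CDK6 was not analysed here.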

Additional observations from a re-analysis of the deposited data

How the results depend on the processing

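With the replicate block and with the block and no replicate 2, respectively, 1061 and 2391 genes passed, 1 and 2 of the 9 cyclin, CDK and RB genes (CDKN2C, then CDKN2C and CDK4), 1 and 3 pathway partners, 3 and 4 E2F target genes, and 0 and 1 MuvB core genes (RBBP4). The first fit called 410 genes higher and 651 lower, and the second 1122 and 1269, where the fit without the block called 43 and 146 of 189. DESeq2 called 303 genes and 0 E2F target genes. Across the fits that left out 1 library, 24 to 445 genes passed, 0 of the 9 genes, 0 partners and 0 to 1 E2F target genes. PRMT5 passed in each of the 13 alternative fits, at log2 fold changes of -3.12 to -3.03. The sign of CDKN1B turned with DESeq2 (0.0051) and with DESeq2 size factors (0.0047), and without 1 library its log2 fold change ran from -0.14 to 0.073. Without 1 library CCND3 ran from -0.028 to 0.19 and RB1 from -0.028 to 0.10. The log2 ratio of CCND1 to CCND3 differed by -0.01 between the groups and by -0.064 to 0.087 without 1 library. Paired by replicate number, its sign-flip test gave an exact p of 0.75, but with 3 pairs that test cannot reach 0.05. The cause of these shifts was not tested. CCND1, CDK2, CDK4, CDKN2C, RBL2 and E2F4 kept their sign in each of the 13 alternative fits, which reuse the same libraries. The fit with no filter repeats the main fit, since 0 genes were removed. Scaling moved the median of all genes by under 0.01. The blocked fit changed no other call among the named pathway genes than those of CDKN2C, CDKN1A, MCM6 and MCM7. At the depth of these libraries CDKN2C and E2F7 rest on 62 reads or fewer in each library, and differences below about 0.25 (log2) lay inside the interval of CDKN1B.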
